A study of Rattus norvegicus with 16 samples.

Results

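The injured lateral cortex of rats 12 h after a fluid percussion was compared with the cortex of sham rats killed 3, 6 or 12 h after the procedure. Fluid percussion drives a pulse of saline against the dura and bruises the cortex beneath it. The comparison rests on the 3 arrays titled 12 h after trauma and on the 3 sham arrays of 3, 6 and 12 h, that is on 6 of the 16 arrays of the series. All rats were male Wistar rats aged 8 weeks. All of them, shams included, had a craniectomy over the right parietal cortex with an adapter fixed to the skull, and 48 h later the injured rats received a moderate percussion (3.3 ± 0.3 atm) while the shams received the sham procedure. The shams therefore also carry the response to the skull opening, and the 48 h sham was kept out of the controls. Brains were perfused with saline, and the cortex that corresponded to the contusion was taken. Injured cortex at 3, 6 and 48 h, with 3 arrays each, serves to place the 12 h values in time. No label states if the arrays came from separate animals or were processed together, so the p-values measure the spread between these arrays, which may be technical.

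Injured tissue releases cell contents that toll-like receptors sense, and NF-kB and STAT3 then switch on cytokines and chemokines that draw neutrophils and monocytes out of the blood. Interferons switch on another set of genes through a promoter element called the interferon-stimulated response element, among them antiviral proteins, guanylate-binding and immunity-related GTPases and the machinery that presents antigens. Astrocytes and microglia meanwhile turn from their resting gene programmes to reactive ones, and the endothelium that forms the blood-brain barrier loosens its junctions.

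The deposited values are log2 intensities from which the median of each probe set over the 16 arrays had been subtracted. Differences between arrays can be read, but neither the level of a gene nor its detection, so the tissue label could not be checked against the levels of its markers. All values below are log2 values relative to the mean of the 3 early shams, and differences are given with the standard error (SE) of the limma fit over 14218 genes. One 12 h array, replicate 2, stood apart. Its values had an SD over genes of 0.372, against 0.236 and 0.244 in replicates 1 and 3 and 0.219 to 0.228 in the early shams. Its polyA spike-in controls, which are added to the RNA before labelling, averaged -1.69 over 24 probe sets, against -0.06 and -0.15 in replicates 1 and 3, while its hybridization controls averaged -0.09. Replicate 3 was high in Ttr, the transthyretin gene of the choroid plexus, at 5.57, while replicates 1 and 2 were at 2.05 and 0.19. The early shams were at -0.19, 0.23 and -0.03, and 0 of the 10 choroid plexus markers measured were called by limma. The part of these differences between arrays in the results was not tested, and the counts of list members called against the shams are therefore also given without replicate 2.

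At 12 h, 496 genes were higher and 196 were lower than in the early shams at an adjusted p under 0.05. This is 3.49% and 1.38% of the 14218 genes, and the median difference of all genes was -0.02. Of the called genes, 184 were at least 2-fold higher and 24 at least 2-fold lower, so the response was weighted towards rises. In 685 of the 692 called genes the 3 injured arrays lay on one side of the 3 shams, which held for 21.4% of all genes. Replicate 2 lay farthest from the shams in 478 of the 692, replicate 1 in 118 and replicate 3 in 96. Over all genes, replicate 2 was the farthest in 7075 of 14218. Without replicate 2, 257 genes were called higher (1.81%) and 67 lower (0.471%). Of these 324 genes 309 were called with all arrays. In 551 of the 692 the difference was smaller in size without replicate 2. All 692 kept their sign, which for the 685 was fixed by their injured arrays lying on one side of the shams. Leaving out each of the 6 arrays in turn gave between 287 genes, when the sham of 6 h was dropped, and 1230, when injured replicate 3 was. Dropping the sham of 3 h gave 403 genes, that of 12 h 489 and injured replicate 1 gave 848. In all 6 of these fits 198 genes were called higher and 47 lower. The genes named below belong to these 245 unless the array is given without which they were not called.

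**Figure D1:**
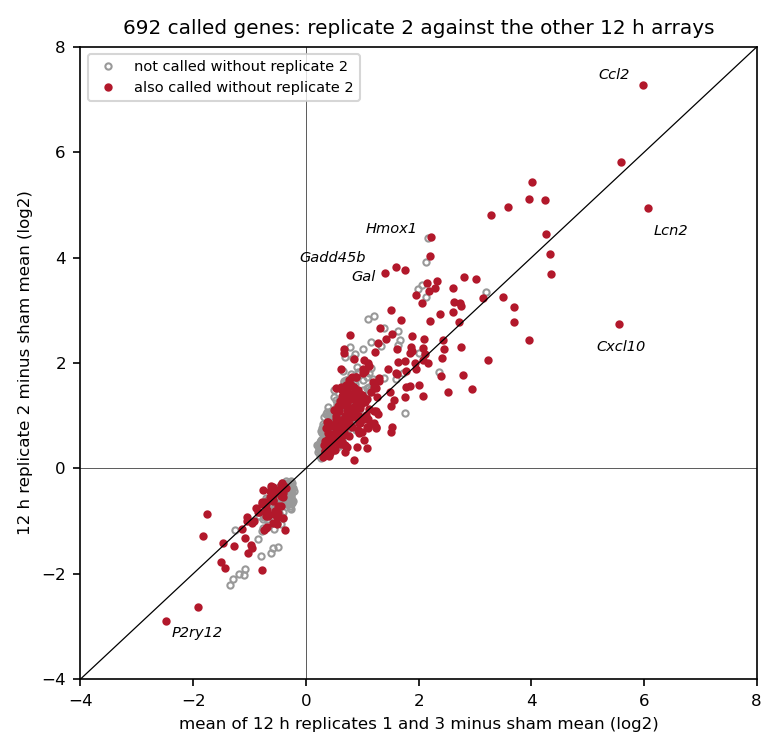
The 692 genes called at 12 h, with the mean of injured replicates 1 and 3 on the x axis and injured replicate 2 on the y axis, both as log2 difference from the mean of the 3 early shams. Filled points are the 309 genes also called without replicate 2, open points the others, and the line marks equal values. Most points lie farther from 0 on the y axis than on the x axis, with Hmox1, Gadd45b and Gal above the line and Cxcl10 and Lcn2 below it.

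Chemokines were among the largest rises, and Ccl2 had the largest of all called genes. Ccl2, which attracts monocytes, stood at 5.68, 7.29 and 6.30 in the 12 h arrays, against 0.34, -0.05 and -0.28 in the shams. Ccl7, a second monocyte attractant, stood at 4.16, 5.09 and 4.33 against -0.05, 0.08 and -0.04. The groups did not overlap in either gene, which was a condition for naming the largest changes. The fit gave 85.6-fold for Ccl2 (6.42 ± 0.76, adjusted p = 0.000324) and 23.1-fold for Ccl7 (4.53 ± 0.51, adjusted p = 0.000218). Of the 16 measured CC chemokines 7 rose and 0 fell, with a median of 0.43. Ccl3, which attracts macrophages, rose by 2.58 ± 0.31, Ccl6 by 2.73 ± 0.60, Ccl4 by 1.26 ± 0.27 and Ccl20, which attracts cells with the receptor Ccr6, by 1.24 ± 0.25. Ccl6 and Ccl4 were not called without replicate 2, the 3 h sham or the 6 h sham (adjusted p 0.0601 to 0.0901), nor Ccl20 without the 6 h sham (adjusted p = 0.0643). Without replicate 2 the list had 4 members higher.

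Of 15 CXC and other chemokines 7 rose and 1 fell, with a median of 0.34. The T cell attractants Cxcl10 and Cxcl11, which interferons induce, differed between the injured arrays. Cxcl10 was 4.92, 2.74 and 6.21 in the 12 h arrays, against 0.32, -0.21 and -0.10 in the shams (4.62 ± 0.64, adjusted p = 0.00094). Here replicate 2 was the lowest and not the highest of the injured arrays. Cxcl11 showed the same order, at 3.25, 2.44 and 4.65 against -0.03, -0.15 and 0.17 (3.45 ± 0.48). Cxcl16, a scavenger receptor that is also shed as a chemokine, rose by 2.15 ± 0.23, and the B cell attractant Cxcl13 by 2.84 ± 0.58. Cxcl12, the homeostatic chemokine of resting tissue, was the member that fell, at -0.51, -1.67 and -1.09 against 0.12, 0.07 and -0.19 (-1.09 ± 0.23, adjusted p = 0.0169). The neutrophil attractants Cxcl1 (2.19 ± 0.58) and Cxcl2 (1.77 ± 0.45) passed with all arrays, but Cxcl1 in 0 of the 6 fits that left out an array (adjusted p 0.0753 to 0.126) and Cxcl2 only without injured replicate 1 (0.0527 to 0.144 in the other 5). Cxcl12 was not called without replicate 2, the 3 h sham or the 6 h sham (0.0591 to 0.0713), and Cxcl13 not without the 6 h sham (0.0551). Without replicate 2, 5 members were higher and 0 lower.

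Il1r2, a decoy receptor that binds interleukin-1 without signalling, stood at 3.52, 4.97 and 3.66 in the 12 h arrays, against -0.11, 0.00 and 0.11 in the shams. Il1r2 was 16.6-fold higher (4.05 ± 0.50, adjusted p = 0.000405). The ligand Il1b rose by 2.88 ± 0.39. Il18bp, a secreted protein that binds interleukin-18, rose by 1.10 ± 0.14. In this family 4 of 11 members rose and 0 fell, with a median of 0.66, and without replicate 2, 3 were higher and 1, the alarmin Il33, was lower (-0.36 ± 0.18 with all arrays, adjusted p = 0.292). The co-receptor Il1rap (0.83 ± 0.21) was not called without replicate 2 or any 1 of the shams (0.0625 to 0.147). Of 13 chemokine receptors 2 rose. Ccr1, the receptor for Ccl3 and Ccl7, was 2.48, 4.39 and 1.95 against -0.03, 0.07 and -0.03 (2.94 ± 0.51), and the neutrophil receptor Cxcr2 rose by 1.17 ± 0.29, though not without replicate 2 or any 1 of the shams (0.0502 to 0.124). Without replicate 2, 1 of the 13 was higher.

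Several receptors and transducers of NF-kB and STAT3 signalling rose. Cd14, the co-receptor for bacterial lipopolysaccharide and damage signals, stood at 3.22, 4.81 and 3.36 in the 12 h arrays, against -0.06, -0.04 and 0.10 in the shams (3.80 ± 0.61, adjusted p = 0.00316). The adaptor Myd88 rose by 1.83 ± 0.30 and the receptor Tlr2 by 1.77 ± 0.27. These were the 3 of 14 members of the toll-like receptor list that passed, with and without replicate 2 (median 0.26). Of 10 NF-kB subunits and inhibitors 5 rose, 3 of them also without replicate 2, and all 10 differences were above 0 (median 0.63). Tnfaip3, a feedback inhibitor of NF-kB, was 1.20, 1.46 and 1.79 against -0.07, -0.32 and 0.40 (1.48 ± 0.23). The subunits Nfkb1 (0.75 ± 0.15), Nfkb2 (0.65 ± 0.13) and Relb (0.61 ± 0.15) changed less. Nfkb1 was not called without replicate 2 or the 3 h sham (0.0503 and 0.0594), Nfkb2 not without the 6 h sham (0.0551) and Relb not without replicate 3 or the 3 or 6 h sham (0.0634 to 0.135).

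Stat3, the transcription factor downstream of interleukin-6, differed little between replicates, at 1.93, 2.19 and 1.75 in the 12 h arrays, against -0.01, -0.02 and 0.03 in the shams (1.96 ± 0.19, adjusted p = 8.28e-05). Its feedback inhibitor Socs3 rose by 1.07 ± 0.20 and the shared receptor chain Il6st by 0.60 ± 0.12. The kinase Jak2 rose by 1.18 ± 0.30, highest in replicate 2 at 2.19, and was not called without any 1 of the shams (0.0899 to 0.111). In all 5 of 16 members of the interleukin-6 and STAT3 list rose (median 0.33), 4 without replicate 2. Il6 itself was 0.63, 1.21 and 0.53 against 0.07, 0.04 and -0.11 and did not pass (0.79 ± 0.29, adjusted p = 0.138). Of the tumour necrosis factor family 4 of 16 rose (median 0.20). Among them were the receptors Tnfrsf12a for TWEAK (2.00 ± 0.39), Tnfrsf9 for a co-stimulatory ligand (1.85 ± 0.21) and Tnfrsf1a for tumour necrosis factor itself (1.77 ± 0.22). Tnfrsf12a was not called without the 6 h sham (0.0524), and 3 members were higher without replicate 2.

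Interferon-linked lists lay above the shams in all 3 injured arrays. The antiviral effectors had list medians of 0.89, 0.73 and 0.82 in replicates 1, 2 and 3, and the signalling genes and GTPases of 0.31, 0.39 and 0.44, so replicate 2 did not stand out. Of 26 antiviral effectors 14 rose and 1 fell (median 0.83), and without replicate 2, 11 rose and 1 fell. Of 18 signalling genes and GTPases 8 rose and 0 fell (median 0.43), and 6 rose without replicate 2. Rsad2, which blocks the budding of viruses, stood at 4.11, 2.79 and 3.28 in the 12 h arrays, against 0.00, 0.23 and -0.22 in the shams (3.39 ± 0.30, adjusted p = 3.3e-05). Isg15, a ubiquitin-like modifier, was 3.11, 2.77 and 2.34 against 0.19, -0.23 and 0.04 (2.74 ± 0.20, adjusted p = 1.06e-05). Of the guanylate-binding and immunity-related GTPases, those named here rose with little spread between replicates. Irgm2 was 3.58, 3.26 and 3.41 against -0.03, 0.15 and -0.12, which is 10.7-fold (3.42 ± 0.24, adjusted p = 1.06e-05). Gbp2 was 4.74, 4.07 and 3.94 against 0.08, 0.16 and -0.24 (4.25 ± 0.53), Irgm rose by 2.31 ± 0.16 and Igtp by 2.18 ± 0.23. The transcription factors Irf1 (2.81 ± 0.34), Irf9 (1.75 ± 0.20) and Irf7 (1.67 ± 0.14) rose as well. Ifi27, a mitochondrial protein that interferon induces in other settings, was the antiviral member that fell, at -1.05, -1.14 and -1.20 against 0.22, 0.25 and -0.46 (-1.13 ± 0.21, adjusted p = 0.00699). Mx2 was 3.08, 0.43 and 0.24 against 0.02, 0.05 and -0.06, far higher in replicate 1 than in the other 2 injured arrays, and did not pass (1.25 ± 0.56, adjusted p = 0.226).

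Promoter windows of these genes are shown because they hold the letters of the interferon-stimulated response element, TTTC and, after a gap of 2 bases, TTTC again. The windows come from RefSeq on the rat build GRCr8 and reach from 250 bases before to 50 bases after the gene's start, and the matched letters are in capitals on either strand. All lines read 5′ to 3′ in the direction of the gene and end at or before its start. In the Tap1 line the second match has the letters of an NF-kB element, GGG, a gap of 2 bases and TTTCC, and the Tnfaip3 line holds 2 such matches on the opposite strand.
Rsad2 (chr6:48788223-48788302, minus strand): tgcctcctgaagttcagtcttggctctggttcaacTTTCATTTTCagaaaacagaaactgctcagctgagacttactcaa
Ifit3 (chr1:241527247-241527325, plus strand): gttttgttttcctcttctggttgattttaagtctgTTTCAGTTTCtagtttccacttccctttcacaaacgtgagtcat
Gbp2 (chr2:234005661-234005726, plus strand): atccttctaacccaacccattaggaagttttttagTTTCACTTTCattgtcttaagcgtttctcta
Irgm (chr10:33742579-33742647, minus strand): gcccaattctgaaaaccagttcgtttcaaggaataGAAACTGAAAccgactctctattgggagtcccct
Tap1 (chr20:4668554-4668699, minus strand): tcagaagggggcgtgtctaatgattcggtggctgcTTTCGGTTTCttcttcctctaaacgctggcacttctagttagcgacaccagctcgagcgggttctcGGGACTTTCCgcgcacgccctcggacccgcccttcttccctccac
Tnfaip3 (chr1:15543990-15544081, minus strand): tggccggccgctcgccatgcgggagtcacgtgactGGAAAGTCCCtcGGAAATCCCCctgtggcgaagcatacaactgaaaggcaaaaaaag

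Of the 18 antiviral effectors with a window 14 held the interferon element (77.8%), among them 9 of the 10 that were called higher and also Ifi27, which fell. Of the 16 signalling genes and GTPases with a window 5 held it. It was in 40 of the 411 windows of genes called higher at 12 h (9.73%) and in 2 of the 165 called lower (1.21%). Of the 11734 measured genes with a window 351 held it (2.99%), and of all 27457 windows 1034 did (3.77%). In the lines above it ends 138 bases before the start of Rsad2, 35 before Ifit3, 22 before Gbp2 and 25 before Irgm. The NF-kB letters were held by 20 of the 411 higher genes (4.87%), Tnfaip3, Nfkb1, Nfkb2, Cxcl1, Cxcl2 and B2m among them. They were held by 0 of the 165 lower genes, 199 of the measured genes (1.70%) and 414 of all windows (1.51%). A match is a description of the letters and no evidence that a factor binds there, and no test was made of these shares. Ifit3, whose protein binds foreign RNA with its partners, was 1.72, 3.29 and 2.21 at 12 h against 0.09, -0.23 and 0.15 in the shams (2.40 ± 0.31).

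A few genes of antigen processing rose. The proteasome is the protease that cuts proteins into peptides, and interferon exchanges some of its subunits for immunoproteasome subunits. Psmb9 was 3.15, 3.09 and 2.36 at 12 h, against 0.08, -0.19 and 0.11 in the shams (2.87 ± 0.32, adjusted p = 0.000214), and the other immunoproteasome subunits Psmb8 (1.49 ± 0.34) and Psmb10 (0.43 ± 0.11) and the activator subunit Psme2 (0.72 ± 0.13) also rose. The other 13 members of the list of 17 did not pass and lay between -0.15 and 0.28. Psmb8 was called only without replicate 3 of the 6 left-out arrays (0.0537 to 0.0964 in the other 5), and Psmb10 was not called without replicate 2 or any 1 of the shams (0.061 to 0.125). Of 18 antigen presentation genes 4 rose (median 0.36), 2 of them without replicate 2. The peptide transporter Tap1 rose by 0.93 ± 0.10 and B2m, the light chain of class I molecules, by 0.54 ± 0.07, though the 2 probe sets of Tap1 gave -0.19 and 2.05. The class II genes RT1-Da (1.67, 2.66 and 1.09 against -0.14, 0.00 and 0.14) and Cd74 (1.57, 2.41 and 0.75 against 0.00, -0.06 and 0.07) passed with all arrays. Each was called in 1 of the 6 fits that left out an array, that without replicate 3 (adjusted p up to 0.166 and 0.21 in the others). Of 15 complement genes 3 rose with and without replicate 2 (median 0.10), among them the inhibitor Serping1 (1.48 ± 0.28), and C3 was at 1.16 ± 0.45 without passing (adjusted p = 0.164).

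**Figure D2:**
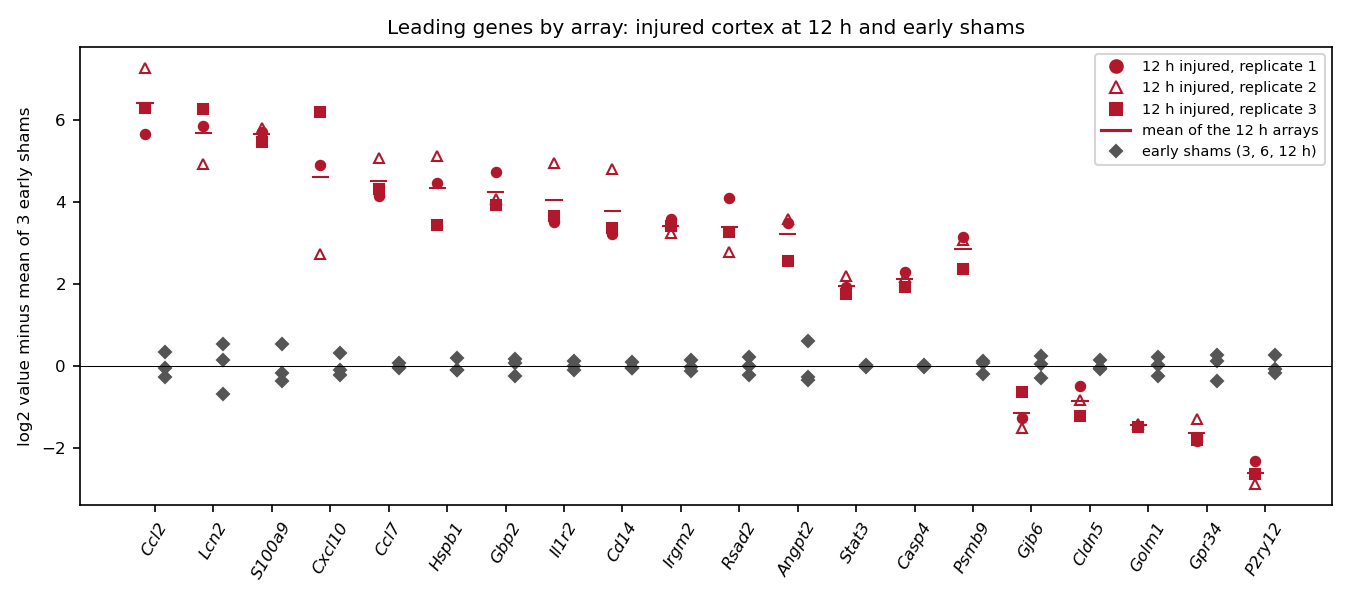
Log2 values of 20 genes in each 12 h array (left, red; circle, open triangle and square for replicates 1, 2 and 3; the bar is their mean) and in the 3 early shams (right, grey diamonds), relative to the mean of the 3 early shams. Irgm2, Stat3 and Casp4 show close replicates, and Cxcl10 ranges from 2.74 to 6.21. In every gene shown the 2 groups do not overlap, as in 685 of the 692 called genes. The largest changes were named under that condition.

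Several genes of proteins that neutrophils carry and that inflamed tissue secretes rose. S100a9, a subunit of calprotectin, stood at 5.71, 5.82 and 5.46 in the 12 h arrays, against -0.17, -0.38 and 0.54 in the shams (5.67 ± 0.73), and its partner S100a8 at 4.29, 4.46 and 4.25 against -0.13, -0.09 and 0.23. The 3 injured arrays lay close together for both subunits. Lcn2, a protein that withholds iron from bacteria, was 5.87, 4.94 and 6.28 against -0.68, 0.15 and 0.54, or 51.7-fold higher (5.69 ± 0.45, adjusted p = 1.86e-05). The protease inhibitor Slpi rose by 4.49 ± 0.62. Of 10 measured genes of neutrophil granules and the acute phase 5 rose and 0 fell (median 1.52), and 6 rose without replicate 2. Mmp9, a gelatinase of neutrophils, was 0.72, 2.62 and 0.73 against 0.10, -0.04 and -0.06 and missed the threshold (1.36 ± 0.37, adjusted p = 0.051), but was called when any 1 of the injured arrays was left out (0.0172 to 0.0292). Of 7 neutrophil markers 3 rose, namely S100a8, S100a9 and Cxcr2. The 2 that rose without replicate 2, S100a8 and S100a9, are also members of the granule list. The markers had medians of 0.65, 2.07 and 0.68 in the 3 injured arrays and 0.01, -0.06 and 0.10 in the shams. Of 12 monocyte and macrophage markers 1 rose with and without replicate 2, Cd14, with medians of 0.54, 0.60 and 0.26 against 0.00 in each sham. Markers of T and NK cells (13 measured), B cells (3), platelets (6) and mast cells (6) had 0 called genes by limma, with differences between -0.37 and 0.34. Hbb, the haemoglobin gene of red cells, was 2.82, 3.49 and 1.30 against -0.15, -0.56 and 0.72 (2.53 ± 0.52, adjusted p = 0.0123) and was not called without replicate 2 or the 6 h sham (0.0585 and 0.0696). In bulk tissue, more or fewer cells of a type and more or less RNA per cell cannot be told apart.

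Of 23 measured reactive astrocyte genes 14 rose and 0 fell, all 23 differences were above 0 and the median was 1.58. Without replicate 2, 12 rose with a median of 1.23. Hspb1, a small heat shock protein, was 4.48, 5.12 and 3.44 at 12 h against 0.20, -0.11 and -0.09 in the shams (4.35 ± 0.53). Serpina3n, a secreted inhibitor of serine proteases, was 3.84, 3.69 and 4.87 against 0.05, -0.09 and 0.05 (4.13 ± 0.67), and S1pr3, a receptor for sphingosine 1-phosphate, rose by 3.08 ± 0.34. The hyaluronan receptor Cd44 rose by 2.73 ± 0.41. The filament genes had smaller differences. Gfap was 1.59, 1.34 and 0.54 against 0.28, -0.15 and -0.13 (1.16 ± 0.23) and was not called without replicate 2 or the 6 h sham (0.0568 and 0.0646), and Vim was 1.05, 1.09 and -0.13 against -0.29, -0.22 and 0.50 and did not pass (0.67 ± 0.41, adjusted p = 0.391). Lgals3 was 1.16, 4.07 and 1.54 against -0.41, 0.21 and 0.20, highest in replicate 2, and did not pass (2.26 ± 0.72, adjusted p = 0.0912, and 0.0486 without replicate 1). The list shares Lcn2, Cxcl10, Stat3 and Socs3 with the inflammatory lists above.

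Of 23 measured genes of resting astrocytes, 0 rose and 5 fell (median -0.14), 2 of them without replicate 2. Gjb6, which forms the gap junctions between astrocytes, was -1.28, -1.52 and -0.63 at 12 h against -0.30, 0.05 and 0.24 in the shams (-1.14 ± 0.19, adjusted p = 0.00341). The glutamate receptor Grm3 fell by 0.61 ± 0.13, the folate enzyme Aldh1l1 by 0.50 ± 0.11 and the bicarbonate transporter Slc4a4 by 0.39 ± 0.10. Aldh1l1 was not called without the 3 or the 6 h sham (0.0696 and 0.0905), Grm3 not without these or replicate 2 (0.0567 to 0.0638), and Slc4a4 was called only without replicate 3 (0.0594 to 0.194 in the other 5). The other gap junction gene of astrocytes, Gja1 (0.00, 0.02 and -0.04 against -0.11, 0.04 and 0.08), and the water channel Aqp4 (-0.16 ± 0.11) did not pass.

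In microglia the pattern was split between homeostatic and activated genes. P2ry12, the receptor through which microglia sense nucleotides, stood at -2.33, -2.89 and -2.65 in the 12 h arrays, against 0.27, -0.09 and -0.18 in the shams. It was 6.16-fold lower, the largest fall among called genes (-2.62 ± 0.29, adjusted p = 0.000221). Gpr34, a receptor for lysophosphatidylserine, was -1.83, -1.29 and -1.81 against 0.26, 0.12 and -0.37 (-1.65 ± 0.21). Tmem119, a microglial surface marker, fell by 1.22 ± 0.31 and the fructose transporter Slc2a5 by 0.88 ± 0.21. Of 15 homeostatic genes 0 rose and 5 fell (median -0.19), 2 of them without replicate 2. Tmem119 was called only without replicate 3 or the 12 h sham (0.074 to 0.157 in the other 4) and Slc2a5 only without replicate 1 or 3 (0.0518 to 0.117). Cx3cr1, the fractalkine receptor, was -0.13, 0.40 and -0.15 against 0.18, -0.27 and 0.09, and Aif1, the Iba1 gene, was 0.12, 0.10 and -0.03 against 0.17, -0.04 and -0.14. Neither of these general markers passed, with differences of 0.04 ± 0.18 for Cx3cr1 and 0.06 ± 0.15 for Aif1. Of 27 genes of activated microglia and macrophages 8 rose and 0 fell, 4 of them without replicate 2. The medians over this list were 0.33, 1.33 and 0.34 in the injured arrays, so replicate 2 was the highest. The glycoprotein Gpnmb (2.50, 4.03 and 1.92 against -0.01, -0.06 and 0.07) and the glucan receptor Clec7a (2.20, 3.40 and 1.79 against -0.15, -0.01 and 0.16) show it, and Clec7a was not called without that array (0.0532).

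**Figure D3:**
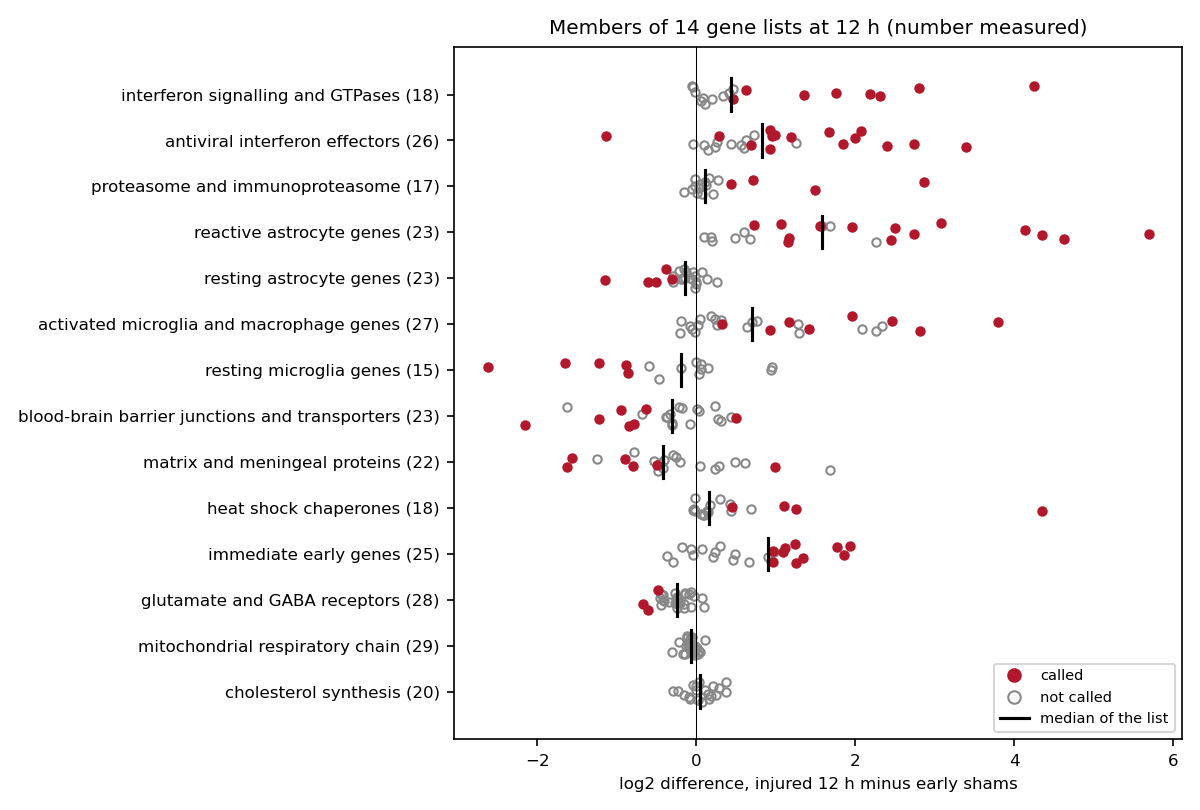
Differences between 12 h and the early shams (log2, x axis) for every measured member of 14 gene lists. Red points were called, open points were not, and the black bar is the median of the list. Interferon and reactive astrocyte genes extend to the right, homeostatic microglia and barrier genes to the left, and the respiratory chain and cholesterol lists lie close to 0 with no called member.

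Among vessel genes, 3 of 15 adhesion molecules rose and 6 of 23 barrier genes fell. Icam1, which leukocytes grip as they leave the blood, was 1.77, 2.31 and 1.97 at 12 h, against -0.18, 0.12 and 0.05 in the shams (2.02 ± 0.22, adjusted p = 0.000215). Sele, the selectin on which they roll, was 2.42, 3.34 and 3.95 against -0.16, 0.16 and -0.01 (3.24 ± 0.70) and was not called without replicate 2 or the 3 or 6 h sham (0.0597 to 0.0609). Angpt2, which destabilises vessels, was 3.50, 3.60 and 2.55 against -0.34, -0.28 and 0.61 (3.22 ± 0.37, adjusted p = 0.000264). Of 15 adhesion molecules 3 rose and 2 fell, and without replicate 2 only Icam1 was called. Of 18 vessel growth signals 2 rose and 2 fell, and 1 rose and 1 fell without replicate 2. Apln, the apelin peptide of growing vessels, fell by 0.61 ± 0.11.

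Of 23 junction and transporter genes of the blood-brain barrier 1 rose and 6 fell (median -0.31), 1 and 4 without replicate 2. The drug efflux pump Abcg2 was -1.59, -2.63 and -2.24 at 12 h, against 0.30, -0.97 and 0.67 in the shams, a wide spread among controls (-2.15 ± 0.39, adjusted p = 0.00581). Cavin2, a coat protein of caveolae, fell by 1.22 ± 0.21. The tight junction gene Cldn5 was -0.49, -0.82 and -1.22 at 12 h against -0.08, -0.06 and 0.15 in the shams (-0.85 ± 0.17), and its neighbour in the junction, Ocln, was -0.57, -0.91 and -0.85 against 0.02, 0.17 and -0.19 (-0.78 ± 0.10). The efflux pump Abcb1a (-0.94 ± 0.25) was not called without replicate 2 or any 1 of the shams (0.0643 to 0.175). The lactate transporter Slc16a1 was the member that rose, by 0.51 ± 0.10, though its 2 probe sets gave -0.08 and 1.09. Slco1a4, an organic anion transporter, was -0.28, -2.88 and -1.72 against 0.08, -0.05 and -0.03 and passed only without replicate 1 (-1.62 ± 0.46, adjusted p = 0.0605, and 0.00191 without that array).

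Some proteases that cut the matrix rose, and some matrix proteins of the meninges fell. Adamts1, which cleaves proteoglycans, was 3.43, 3.23 and 2.85 at 12 h, against 0.56, -0.17 and -0.38 in the shams (3.17 ± 0.45, adjusted p = 0.00105), Adamts9 rose by 1.01 ± 0.14 and the stromelysin Mmp3 by 0.77 ± 0.15. The 2 probe sets of Adamts9 gave 0.02 and 2.00. Of 21 matrix proteases and their regulators 4 rose and 1 fell (median 0.27), and without replicate 2, 4 were higher. The inhibitor Timp1 was 2.44, 3.26 and 1.82 against -1.11, 0.76 and 0.36 (2.50 ± 0.50) and was not called without replicate 2 (0.0564). Of 22 matrix and meningeal proteins 1 rose and 5 fell (median -0.41), but 0 were called by limma without replicate 2. Ogn, a proteoglycan of the meninges, was -1.34, -2.21 and -1.34 against -0.34, 0.13 and 0.21, and the collagen Col1a2 was -1.04, -2.09 and -1.53 against -0.60, -0.04 and 0.64. Both were not called without replicate 2, the 6 h sham or the 12 h sham (0.0712 to 0.121). Omd, a related proteoglycan that is on none of the lists, was -1.31, -1.47 and -1.22 against -0.24, 0.06 and 0.19 and was called in each of the 6 fits (-1.34 ± 0.20, adjusted p = 0.0017). The 12 meningeal and fibroblast markers had 4 lower members with all arrays and 0 without replicate 2, by limma. They had medians of -0.44, -0.93 and -0.47 at 12 h and of -0.27, 0.04 and 0.19 in the shams, so the controls themselves differed in these genes.

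Stress responses were uneven. Of 18 heat shock chaperones 4 rose (median 0.16), and without replicate 2 Hspb1 alone. The co-chaperone Bag3 (0.67, 2.10 and 0.99 against -0.20, -0.04 and 0.24) and the small heat shock protein Hspb8 (1.10 ± 0.25) were not called without replicate 2 or the 3 or 6 h sham, and Bag3 not without the 12 h sham either (0.0609 to 0.165). The 14 chaperones that did not pass lay between -0.04 and 0.69. The heat shock element, GAA, TTC and GAA with gaps of 2 bases, was in the windows of 0 of the 3 risen chaperones that have one. It was in those of 5 of the other 12, Hspd1, Hsph1 and Dnaja1 among them. Of the 11734 measured genes with a window 53 held it (0.452%), and of all windows 202 (0.736%). Of 23 haem, metal and antioxidant genes 5 rose (median 0.10), 4 without replicate 2. Sod2, the manganese superoxide dismutase, was 1.10, 1.12 and 1.13 at 12 h, against -0.01, 0.03 and -0.03 in the shams (1.12 ± 0.10, adjusted p = 4.22e-05). The metallothionein Mt2A rose by 1.70 ± 0.33. Its window holds the metal response letters TGCACNC, as 13.5% of those of measured genes and 12.2% of all windows do. Txnrd1, a thioredoxin reductase, rose by 0.88 ± 0.15. Hmox1, which degrades haem, was 2.00, 4.37 and 2.32 against 0.25, -0.21 and -0.04 (2.90 ± 0.63) and was not called without replicate 2 or the 6 or 12 h sham (0.0515 to 0.0739). Of the unfolded protein response 2 of 21 genes rose and 1 fell, and 0 were called by limma without replicate 2.

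Of 18 p53 targets and Bcl2 family genes 8 rose and 0 fell (median 0.30), 6 without replicate 2. Casp4, the inflammatory caspase that senses lipopolysaccharide in the cytosol, was 2.29, 2.17 and 1.93 at 12 h, against 0.03, 0.00 and -0.02 in the shams, 4.37-fold higher (2.13 ± 0.18, adjusted p = 2.81e-05). The survival gene Bcl2a1 was 2.10, 3.43 and 2.48 against 0.11, 0.02 and -0.14 (2.67 ± 0.33). The stress protein Gadd45g was 1.90, 3.52 and 2.39 against 0.94, -0.30 and -0.65 (2.61 ± 0.44). Its relative Gadd45b was 1.28, 3.83 and 1.91 against 0.19, -0.05 and -0.13 (2.34 ± 0.46), highest in replicate 2. The p53 target Cdkn1a was -0.45, 0.36 and 1.17 against -0.25, 0.15 and 0.10 and did not pass (0.36 ± 0.31, adjusted p = 0.56).

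Cells transcribe immediate early genes within minutes of a stimulus. Of 25 measured, 10 were higher at 12 h and 0 lower (median 0.90), and 6 without replicate 2. Cebpd, a factor of the acute phase, was 2.00, 1.89 and 1.91 against 0.29, -0.07 and -0.22 in the shams (1.93 ± 0.24, with its 3 probe sets between 0.05 and 3.03), Myc rose by 1.86 ± 0.28 and Ier2 by 1.34 ± 0.16. Fos rose by 0.97 ± 0.17, but its 2 probe sets gave -0.05 and 1.99. Fosl1, a partner of Jun proteins, was 0.82, 2.67 and 1.82 against -0.08, -0.01 and 0.10 (1.77 ± 0.34), and Atf3 was 0.87, 2.93 and 0.90 against 0.39, 0.00 and -0.38, highest in replicate 2, and did not pass (1.56 ± 0.47, adjusted p = 0.0752, and 0.0342 to 0.0433 without injured replicates 3 or 1). The axon injury genes had medians of 0.00, 0.99 and -0.01 in the 3 injured arrays, so only the median of replicate 2 lay above all 3 sham medians, which were 0.04, 0.00 and -0.06. Gal, the neuropeptide galanin, was 1.52, 3.70 and 1.28 against -0.06, -0.31 and 0.37 (2.17 ± 0.46) and was not called without the 3 or 6 h sham (0.0563 and 0.075). Of these 19 genes 3 rose, 2 without replicate 2.

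Among enzymes, Upp1, which salvages uridine, stood at 2.06, 2.07 and 2.10 at 12 h, against -0.26, 0.02 and 0.25 in the shams (2.07 ± 0.30). Odc1, the rate-limiting enzyme of polyamine synthesis, rose by 0.93 ± 0.17 and Nampt, the rate-limiting enzyme of NAD salvage, by 0.65 ± 0.09. Of the 20 polyamine, arginine and nucleotide genes 5 rose (median 0.18), 4 without replicate 2. Ch25h, which makes 25-hydroxycholesterol, was 2.53, 2.31 and 2.97 against 0.19, 0.01 and -0.19 (2.60 ± 0.56), though it was not called without the 6 or 12 h sham (0.0533 and 0.0643). Of 21 prostaglandin and leukotriene genes 2 rose and 1 fell, and the counts without replicate 2 were the same, though for partly other genes. Ltc4s, which makes leukotriene C4, fell, at -0.65, -0.78 and -0.74 against -0.12, 0.10 and 0.03 (-0.73 ± 0.10, adjusted p = 0.000664). Ptges, which makes prostaglandin E2, was 1.04, 1.81 and 2.40 against 0.01, -0.17 and 0.16 (1.75 ± 0.38) and was not called without replicate 2 or the 3 or 6 h sham (0.0563 to 0.0749). Golm1, a Golgi membrane protein on none of the lists, fell with little spread between replicates, at -1.47, -1.41 and -1.49 against 0.22, 0.03 and -0.25 (-1.46 ± 0.15, adjusted p = 0.00011). The membrane glycoprotein Prom1 fell by 1.59 ± 0.29 and the tetraspanin Tspan8 by 1.59 ± 0.31. Alb, the albumin gene, was -1.96, -0.86 and -1.54 against -0.43, 0.16 and 0.27 and was not called without the 6 or 12 h sham (0.0593 and 0.0739).

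Most neuronal genes were not called, and the called members of the neuronal lists were lower. Of all genes, 1.38% were called lower, and 0.471% without replicate 2. Of 17 neuron markers 1 fell, the kinase Camk2a, which was -0.85, -0.63 and -0.59 at 12 h, against 0.07, 0.08 and -0.15 in the shams (-0.69 ± 0.12, adjusted p = 0.00541). The list lay at a median of -0.15, with 16 of 17 differences below 0, and Snap25, a protein of synaptic vesicle fusion, was at -0.04, -0.10 and 0.02 against -0.06, 0.04 and 0.03. Of 28 glutamate and GABA receptors 3 fell (median -0.24) and 26 differences were below 0, but 0 were called by limma without replicate 2. Of 38 potassium channels 4 fell (median -0.10), 2 without replicate 2, namely Kcna5 (-0.49, -0.71 and -0.49 against 0.01, 0.13 and -0.14) and Kcnd2 (-0.53 ± 0.10), which carry delayed and transient potassium currents. Bdnf, a neurotrophin that activity induces, was -0.14, 1.24 and -0.38 against 0.00, 0.09 and -0.09, high in replicate 2 alone (0.24 ± 0.32, adjusted p = 0.73). Among 29 genes of the mitochondrial respiratory chain, 20 of myelin and oligodendrocytes and 20 of cholesterol synthesis 0 were called by limma, with medians of -0.06, 0.01 and 0.05. Synaptic vesicle and exocytosis genes had 1 lower member of 33 (median -0.13), calcium and postsynaptic signalling genes 1 of 29 (-0.06) and interneuron and neuropeptide genes 1 of 18 (-0.22), and without replicate 2 these counts were 1, 1 and 0. Among the other lists, 3 of 21 hypoxia and glycolysis genes rose (median 0.10), 2 of 12 MAP kinase phosphatases and Sprouty genes (0.25), 1 of 23 growth factors and neurotrophins (0.10) and 2 of 22 lipid uptake and efflux genes (0.14). Without replicate 2, 1 hypoxia gene, 2 phosphatase and Sprouty genes, 0 growth factors and 1 lipid gene were called higher by limma. Of 16 glucocorticoid-responsive genes 2 fell (median -0.15), and of 17 Id regulators and BMP signalling genes 1 rose and 2 fell (-0.07). Without replicate 2, 1 glucocorticoid-responsive gene was lower, and 0 Id and BMP genes were called by limma. The counts with all arrays can be read against the 3.49% and 1.38% of all genes called higher and lower. For the counts without replicate 2 these shares were 1.81% and 0.471%. Of the cell type markers, the 12 of astrocytes had 1 higher and 3 lower members, the 9 of microglia 3 lower, the 11 of endothelium 1 higher and 2 lower and the 11 of pericytes and smooth muscle 1 higher. Without replicate 2, 0 of these markers were called higher by limma, and 2 astrocyte, 2 microglia and 1 endothelium markers were lower. The 11 of oligodendrocytes, the 5 of their precursors and the 5 of ependyma had 0 called members by limma, with differences between -0.63 and 0.36.

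**Figure D4:**
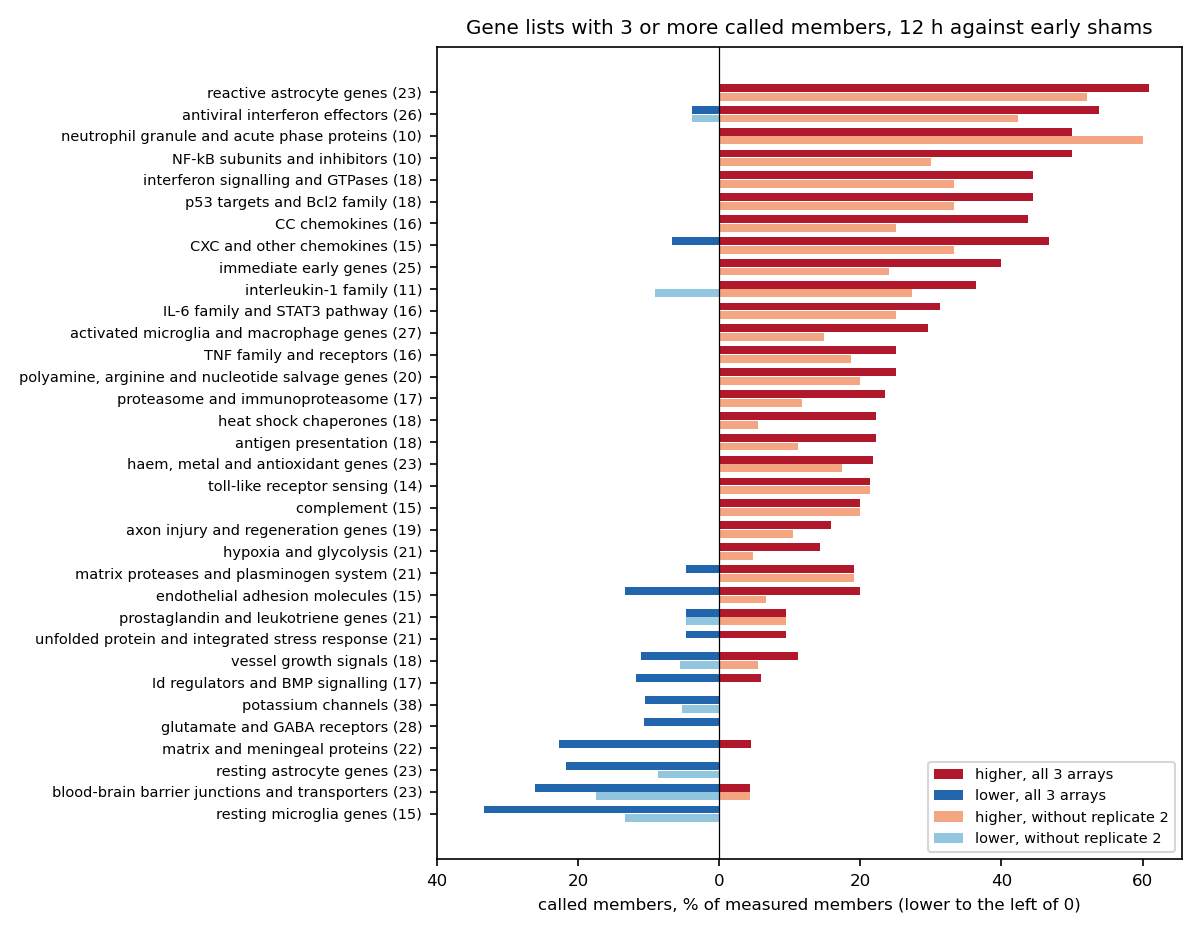
Called members as a percentage of measured members (number in brackets) for the lists with 3 or more called members, higher to the right and lower to the left of 0. Dark bars use all 3 injured arrays and pale bars leave out replicate 2. Antiviral effectors had 14 higher members with all arrays and 11 without replicate 2, and matrix and meningeal proteins had 5 lower members with all arrays and 0 without it.

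In the course after injury the 12 h cortex lay closest to the 6 h cortex in the number of called genes. Against 3 h, 685 genes were higher (4.82%) and 457 lower (3.21%) at 12 h. Against 6 h, 0 were higher (0.0%) and 2 lower (0.0141%) by limma, although 1249 genes had an unadjusted p under 0.05. Against 48 h, 1015 were higher (7.14%) and 1165 lower (8.19%). These comparisons and those with the shams share the 12 h arrays. Without replicate 2 the totals were 529 against 3 h, 11 against 6 h and 1487 against 48 h.

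Genes moved both ways against 3 h. Il1a, a ligand of the interleukin-1 receptor, was 5.47, 5.01 and 4.81 at 3 h and 0.03, 1.05 and 0.90 at 12 h, a difference of -4.44 ± 0.30 (adjusted p = 1.28e-05). Ccl4 was 4.38, 4.81 and 4.96 at 3 h, 3.42, 3.69 and 3.46 at 6 h and 0.45, 1.49 and 1.84 at 12 h. S100a9 was 0.09, 0.18 and 0.76 at 3 h, 4.53, 6.59 and 5.62 at 6 h and 5.71, 5.82 and 5.46 at 12 h (5.32 ± 0.73 above 3 h). Of the 26 antiviral effectors 14 were higher and 1 lower at 12 h than at 3 h, and of 23 reactive astrocyte genes 14 higher and 0 lower. The 2 genes that differed between 6 and 12 h were Il6 (4.04, 4.15 and 2.82 at 6 h and 0.63, 1.21 and 0.53 at 12 h, -2.88 ± 0.29) and Ccl4 (-2.26 ± 0.27), and Ccl4 was not called without 6 h replicate 2 (adjusted p = 0.0625).

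By 48 h Cxcl10 was back near the early shams, and so was Il1r2 except in 48 h replicate 2. Cxcl10 was 4.92, 2.74 and 6.21 at 12 h and 0.38, 0.42 and -0.03 at 48 h (4.37 ± 0.64, adjusted p = 0.000811), and Il1r2 was 3.52, 4.97 and 3.66 at 12 h and 0.15, 1.22 and -0.04 at 48 h. Lcn2 was 5.87, 4.94 and 6.28 at 12 h and 5.47, 5.92 and 5.47 at 48 h, which did not pass as a difference (0.08 ± 0.45, adjusted p = 0.939), and 1.79 in the lone 48 h sham. Of 15 homeostatic microglia genes 11 were lower at 12 h than at 48 h. P2ry12 was -2.33, -2.89 and -2.65 at 12 h and 0.51, 1.18 and 0.73 at 48 h (-3.43 ± 0.29, adjusted p = 2.3e-05). Of 28 cell cycle genes 1 was called against the shams at 12 h, the replication helicase subunit Mcm4 (0.69 ± 0.14, not called without replicate 2 or the 6 h sham, 0.063 and 0.058), but 14 were lower at 12 h than at 48 h. Cdk1, the kinase of mitosis, was -0.63, -0.80 and -0.73 at 12 h and 2.77, 3.22 and 1.21 at 48 h, and the lone 48 h sham stood at 1.66. Fcrl2, an Fc receptor-like protein, was -0.28, -0.40 and -0.22 at 12 h and 5.31, 4.06 and 3.58 at 48 h, against 0.61 in the 48 h sham.

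**Figure D5:**
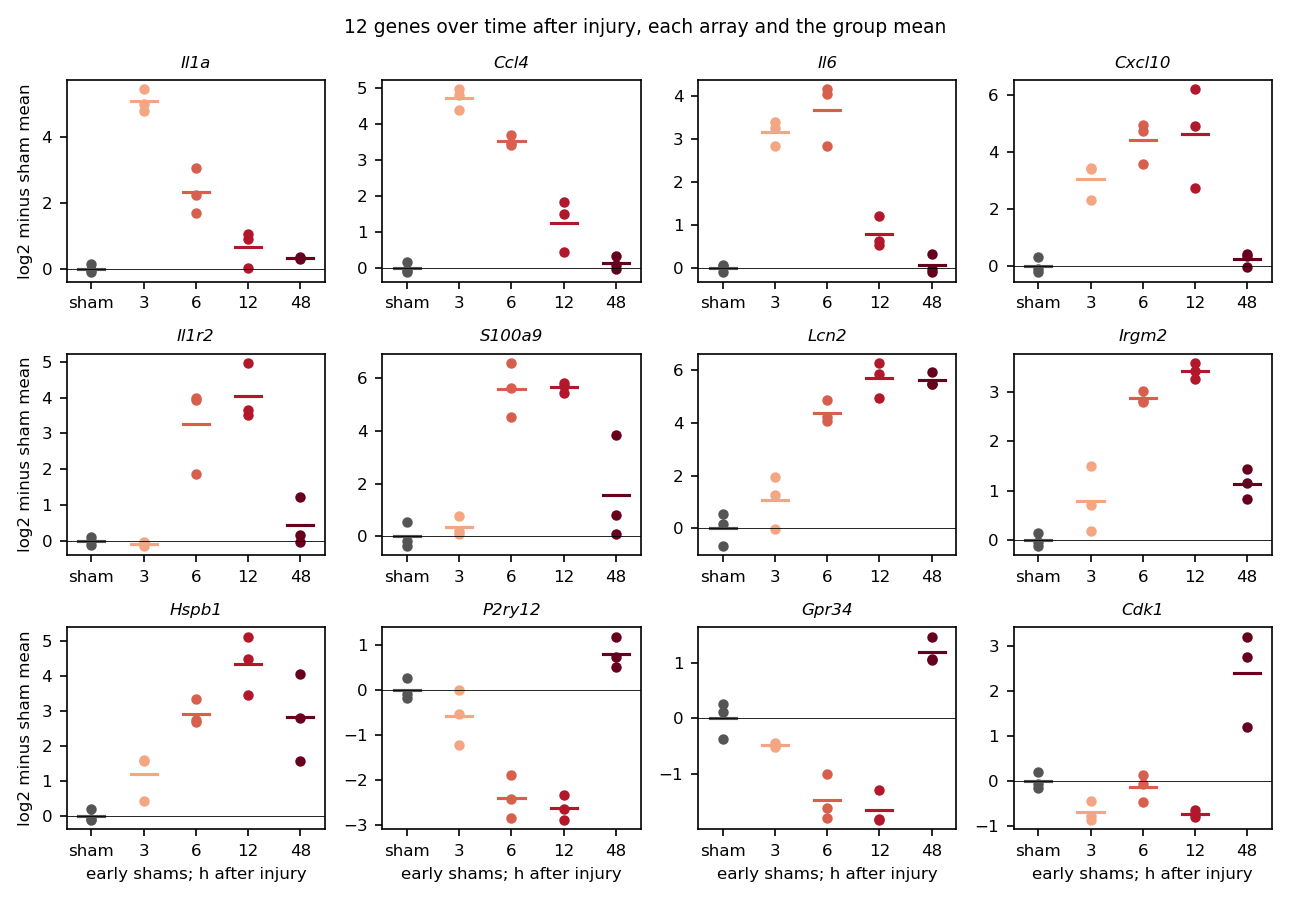
Log2 values of 12 genes relative to the mean of the early shams, for the early shams and for injured cortex at 3, 6, 12 and 48 h (x axis), with each array as a point and the group mean as a bar. At 12 h Il1a is lower than at 3 h and Il6 lower than at 6 h. Ccl4 is lower than at 3 and 6 h but still above the early shams. Cxcl10, Il1r2 and S100a9 are high at 6 and 12 h. P2ry12 and Gpr34 are lowest at 12 h and above the early shams at 48 h, and the 48 h sham is not shown. Only Il6 and Ccl4 were called between 6 and 12 h, so P2ry12 and Gpr34 were not separated between these times.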

How the data were processed

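PolyA RNA of rat lateral cortex was hybridised to 16 Affymetrix arrays. The authors deposited log2 values, made with RMA per the submitters' processing notes, and each probe set has a median of 0 over the 16 arrays. The tool's version is not given in the sources used here, and depth has no meaning for arrays, whose number limits the precision. Of 31099 probe sets 20832 carried 1 gene symbol and were averaged into 14218 genes. One limma model (3.58.1, R 4.3.3) of 6 groups over all 16 arrays gave each contrast, with Benjamini-Hochberg adjustment over all genes, and genes were called at an adjusted p under 0.05. The shams of 3, 6 and 12 h formed 1 group. The fit was tested on simulated data.

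Named genes were the 20 largest rises and 15 largest falls among called genes whose arrays do not overlap, up to 4 called members of each list, a panel given whether called or not, and up to 8 genes each way against each other time. Some panel genes are not reported here. Ccl20, Cxcl12, Cxcl16, Il33, Irf9, Ifi27, Mx2, Cd44, Lgals3, Ocln, Slc16a1 and Slco1a4 were named after their values were seen. Members, lists and tests were chosen with earlier results of these data known, and lists share members. Alternatives were leaving out each array, other probe set, scaling, control and variance choices, and a replicate block. Replicate numbers were not used to pair the arrays in the main fit. The deviations of same-numbered arrays, 12 h against another time, correlated between -0.188 and 0.257. Against 48 h each of them (0.089 to 0.193) exceeded the largest correlation with another number (-0.048 to -0.007). Against 6 h each lay below it. Against 3 h only replicate 1 exceeded it, so pairing was not settled.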

Additional observations from a re-analysis of the deposited data

Results flagged for a closer look

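The 12 h cortex differed from the injured cortex at other times by limma in 1142 genes against 3 h, 2 against 6 h and 2180 against 48 h. S100a9 was higher at 12 h than at 3 h by 5.32 and Lcn2 by 4.63 on the log2 scale, while Il1a differed by -4.44 and Ccl4 by -3.46. Between 6 and 12 h the differences were -2.88 for Il6 and -2.26 for Ccl4. Cxcl10 was higher at 12 h than at 48 h by 4.37 and Il1r2 by 3.61, while P2ry12 differed by -3.43 and Fcrl2 by -4.62. Each is a direct contrast of injured arrays, and the 4 comparisons of the report share the 12 h arrays.

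Of 9780 probe sets without a gene symbol, which enter no comparison above, 144 were called at 12 h against the early shams (96 higher and 48 lower, 1.47%), and 74 without replicate 2 (0.757%). Of the 20832 probe sets with 1 symbol, 739 were called (3.55%).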

How the results depend on the processing

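The number of genes called by limma at 12 h against the early shams, 692 with all arrays, lay between 287 and 1230 when each array was left out in turn. It was 271 with only the 6 compared arrays in the fit, 91 with the 12 h sham alone as control and 208 with a 2-fold minimum. Against 3 h the count was 372 to 1405 with an array left out, 393 with only the compared groups and 158 with the 2-fold minimum. Against 6 h it was 1 to 45 with an array left out, 9 after quantile normalization, 8 with array weights and 0 with only the compared groups. Against 48 h it was 1339 to 2442 with an array left out, 1332 after quantile normalization, 388 with only the compared groups and 288 with the 2-fold minimum. Fewer arrays enter the compared-groups fits and those with an array left out. The 12 h sham alone is 1 control array, and a 2-fold minimum can only remove calls. The causes of the differences were not otherwise tested.

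With the replicate number as a block the counts were 846 against 3 h, 3 against 6 h and 1657 against 48 h. The correlations did not settle if the numbers pair the arrays. No paired analysis was possible against the shams because the titles number every sham as replicate 1, so their numbers cannot match them to the 3 injured arrays. Of 120 named genes called against the shams, 91 were also called without replicate 2, 84 without the 6 h sham and 46 with the 12 h sham alone. The called members of a list were within 1.5 times the main count in 626 of 882 list and setting pairs.

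Genes near 0 changed sign. With an array left out, Cx3cr1 ranged between -0.14 and 0.135, Aif1 between -0.008 and 0.149, Gja1 between -0.066 and 0.029, Cdkn1a between -0.042 and 0.767 and Bdnf between -0.263 and 0.549. Cx3cr1 was -0.019 and Gja1 0.006 after quantile normalization. By the probe set with the highest mean of the centred values Gja1 was 0.003 and Fos -0.05. That choice does not show which probe set is the brightest. Cx3cr1 was -0.05 against the 12 h sham alone, and against all 4 shams Cx3cr1 was -0.07 and Aif1 -0.145. These alternatives were listed for the named genes, and those for single genes between times were chosen after seeing the data.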
